A study of Mus musculus with 8 samples.

Results

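The 10 genes described here act on collagen after its chains are translated: *P4ha1* and *P4ha2*, *Plod1* and *Plod2*, *Serpinh1*, *Bmp1* and *Pcolce*, and *Lox*, *Loxl1* and *Loxl2*. They were chosen by name as a group of collagen processing and cross-linking enzymes, and all 10 were found among the 24346 genes of the deposited RPKM table. RPKM, the read count per kilobase scaled to library depth, corrects for transcript length, so that levels of different genes can be set side by side. RNA was sequenced from bone marrow mesenchymal stem/stromal cells (MSCs), adherent cells able to give rise to osteoblasts, adipocytes and chondrocytes. The 8 libraries fall into 4 groups of 2, WT and *Dnmt3l* KO MSCs, each undifferentiated or differentiating. WT and KO cells came from adult female C57BL/6 mice, *Dnmt3l* +/+ or *Dnmt3l* -/- littermates of crosses between carriers of the tmEnls allele, and all were depleted of CD11b and CD45 positive cells and used at passage 4. Differentiating cells had spent 3 days in osteogenic medium with dexamethasone, β-glycerophosphate and L-ascorbic acid 2-phosphate, and with less serum than the growth medium of the undifferentiated cells, so effects of the inducers, the serum and the time in culture cannot be told apart. Cells of several mice were mixed for each genotype, and neither the labels nor the methods show whether a group's 2 libraries stem from different mixes; p-values then measure only the spread between these libraries, which may be technical.

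Fibril-forming collagens are made as procollagen chains in the endoplasmic reticulum. Prolyl 4-hydroxylases modify their prolines so that the triple helix is stable, lysyl hydroxylases modify lysines that later carry sugars and cross-links, and the chaperone HSP47, the product of *Serpinh1*, holds the folded helix until it leaves the endoplasmic reticulum. Outside the cell, BMP1 removes the C-terminal propeptide with the help of the enhancer PCOLCE, and lysyl oxidases then oxidise lysines so that neighbouring collagen or elastin molecules become cross-linked. The hydroxylases need oxygen, iron and ascorbate, and several of these genes, *P4ha1*, *P4ha2*, *Plod2*, *Lox* and *Loxl2* among them, are known as targets of the hypoxia-inducible factors. The organic part of bone matrix is mainly cross-linked type I collagen, which osteoblasts make.

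The stretches of 250 bases before the RefSeq transcription start are shown for *P4ha1*, which had the largest fitted decrease during induction of WT MSCs among the 9 genes with a value (4.04-fold), for its paralog *P4ha2*, which fell 1.19-fold there, and for the abundant *Serpinh1*, which fell 1.69-fold in WT and 2.37-fold in KO MSCs. They are written 5′ to 3′ on the strand of the gene, in the GRCm38.p6 build, with the 5-letter cores of the hypoxia response element in capitals (ACGTG or GCGTG, or their reverse complements CACGT or CACGC).
P4ha1, chr10:59323046-59323295, plus strand: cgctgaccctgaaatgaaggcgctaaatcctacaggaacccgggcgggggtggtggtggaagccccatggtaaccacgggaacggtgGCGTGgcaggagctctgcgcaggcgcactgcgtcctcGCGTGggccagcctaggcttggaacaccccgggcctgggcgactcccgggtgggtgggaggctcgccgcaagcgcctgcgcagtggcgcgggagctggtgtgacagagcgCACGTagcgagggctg
P4ha2, chr11:54100674-54100923, plus strand: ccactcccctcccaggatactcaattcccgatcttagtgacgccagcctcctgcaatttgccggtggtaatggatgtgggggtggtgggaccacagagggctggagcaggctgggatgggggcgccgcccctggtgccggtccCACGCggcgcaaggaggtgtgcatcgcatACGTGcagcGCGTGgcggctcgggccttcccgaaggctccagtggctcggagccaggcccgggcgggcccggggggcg
Serpinh1, chr7:99353240-99353489, minus strand: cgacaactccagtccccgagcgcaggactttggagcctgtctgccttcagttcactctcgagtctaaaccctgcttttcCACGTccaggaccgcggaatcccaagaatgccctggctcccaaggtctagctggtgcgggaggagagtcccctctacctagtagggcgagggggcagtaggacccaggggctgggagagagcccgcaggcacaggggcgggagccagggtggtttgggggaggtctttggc
The 3 stretches hold 0 annotated exon bases in the GENCODE annotation; that of *P4ha2* lies in an intron of a longer *P4ha2* transcript. *P4ha1* and *P4ha2* have 3 such cores each, and *Serpinh1* has 1. Of 32851 RefSeq promoters of the same length, 38.6% held at least 1 core and 6.6% held 3 or more. The *P4ha1* stretch holds 24 CG dinucleotides and that of *P4ha2* 21, against a median of 6, and 88.0% and 83.7% of all promoters have fewer. The *Serpinh1* stretch holds 11. A promoter was found for 5 of the 10 genes. *Plod1* and *Pcolce* had 1 core each, with 16 and 5 CG dinucleotides. The *Pcolce* stretch lies inside the annotated span of the gene and holds 83 exon bases. The AP-1 site TGANTCA was found 0 times in these 5 stretches (6.7% of all promoters have it), and the RUNX core TGTGGT was found once, in *P4ha2* (14.0% of all promoters); both strands were searched. These matches describe letters in the sequence and say nothing of binding.

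*Dnmt3l* itself, the gene deleted in the KO mice, was listed at 0 RPKM in the 4 KO libraries and at 1.56 and 1.09 RPKM in undifferentiated and 0.845 and 0.830 RPKM in differentiating WT libraries. According to the paper, the WT reads lay only on later exons of *Dnmt3l*, and its canonical protein was not detected in MSCs. A listed 0 can be a failed estimate in this table: *Actb*, the cytoskeletal actin of every cell, is at 0 in both undifferentiated KO libraries. The steps in the low RPKM values gave an estimated depth of 48.1 to 67.0 M scaled reads per library. At that depth the values of the 10 genes rest on about 5126 reads or more each, a counting error of at most 1.4%. The median difference between the 2 libraries of a group, over the genes with a value (10, or 9 in differentiating WT MSCs), was larger. It was 2.04% and 2.66% in the undifferentiated WT and KO groups, and 3.83% and 5.01% in the differentiating WT and KO groups. Single genes differed less, down to 0.00862% for *Lox* in undifferentiated WT MSCs. *Serpinh1* differed most in each group, by 21.4% between the 2 differentiating KO libraries. Those libraries also differed most over all genes averaging 20 RPKM or more in a group (3845 to 3979 genes). The median there was 6.66%, against 2.13% to 3.54% in the other groups. Cells that are fewer and cells that hold less RNA of a gene cannot be told apart in these bulk libraries. The 9 MSC and stromal markers were detected in every library, from Lepr at 1.14 to 2.96 RPKM to Ly6a at 471 to 2603 RPKM, and during induction 6 rose and 3 fell in WT and 4 rose and 4 fell in KO MSCs. The 8 macrophage and leukocyte markers summed to 17.9 to 19.1 RPKM in undifferentiated and 31.1 to 35.7 RPKM in differentiating WT libraries. In the KO libraries the sums were 8.67 to 9.53 and 13.7 to 14.7 RPKM. Lyz2 was at 12.8 to 26.5 RPKM in WT and 3.19 to 7.66 RPKM in KO libraries, and Ptprc at 0.127 RPKM or less in all. Of the 7 tested, 2 were higher and 3 lower in undifferentiated KO MSCs, against 14.6% and 17.5% of all genes. In differentiating KO MSCs 1 was higher and 6 were lower, against 17.8% and 22.8% of all genes. Cd14 was higher in KO MSCs in both states, and Csf1r in the undifferentiated state. The 6 adipogenic markers summed to 57.1 to 67.7 RPKM in undifferentiated and 420 to 467 RPKM in differentiating libraries, and all 6 rose in both genotypes. The 8 osteoblast markers summed to 623 to 628 and 1385 to 1492 RPKM in WT and to 528 to 539 and 707 to 828 RPKM in KO libraries, with Bglap below 0.71 RPKM throughout. The sums rose mainly through Ibsp, which was at 19.7 to 51.3 RPKM before and 313 to 729 RPKM after induction; 3 of the 8 markers rose and 2 fell in WT, and 2 rose and 4 fell in KO MSCs, Sp7 being among those that fell in both. The part of these cell types in the results below was not tested.

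The collagen processing genes were among the most abundant transcripts of these cells. Every one of the 10 stood at or above the 81st percentile of all genes tested in each group where it has a value. In undifferentiated WT MSCs the order ran from *Serpinh1* (1365 ± 44.7 RPKM; all errors of levels are SD over n = 2 libraries) and *Lox* (1277 ± 0.0778) through *Pcolce*, *Loxl2*, *P4ha1*, *P4ha2*, *Plod2*, *Bmp1* and *Loxl1* to *Plod1* (35.8 ± 1.15). The neighbours *Bmp1* and *Loxl1* overlapped between libraries there. In undifferentiated KO MSCs *Lox* and *Serpinh1* overlapped, and so did *P4ha1* and *P4ha2*. In differentiating KO MSCs *Lox* was highest at 1404 ± 111 RPKM, *Pcolce* and *Serpinh1* overlapped below it, and *P4ha1* had become the lowest at 28.5 ± 2.11 RPKM. *P4ha1* was also the lowest of the 9 genes with a value in differentiating WT MSCs, at 35.7 ± 0.890 RPKM.

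**Figure D1:**
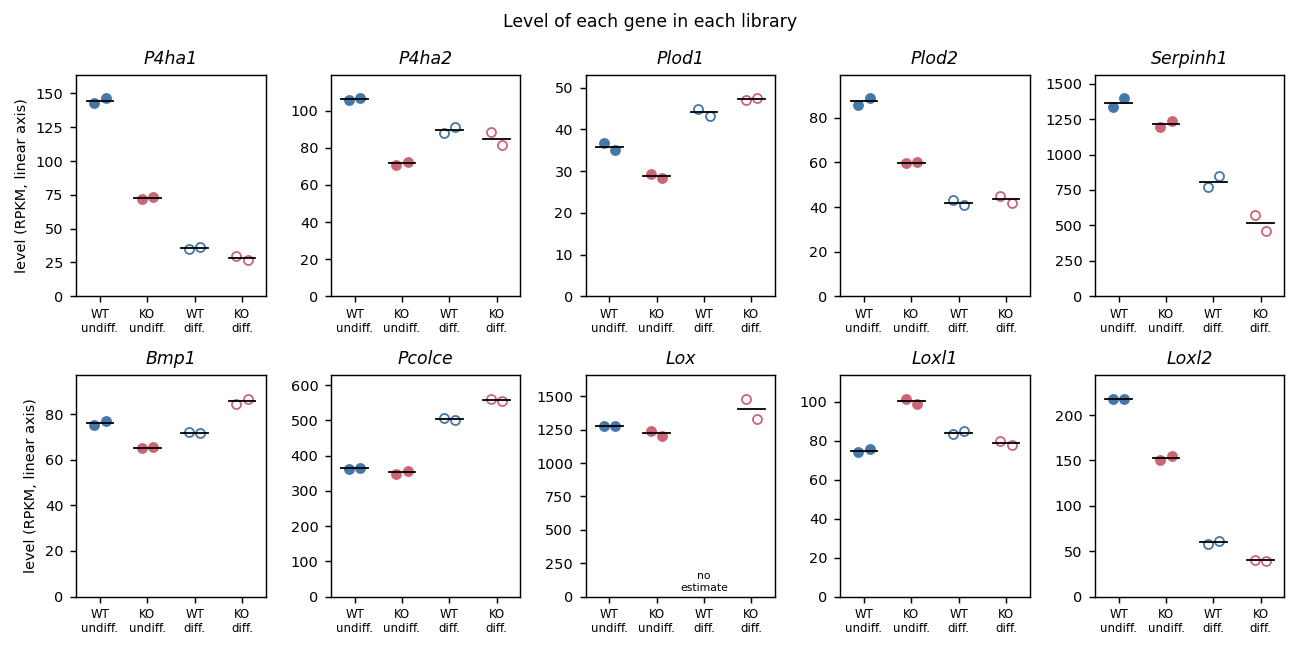
RPKM (linear axis from 0) of each of the 10 genes in every library, grouped as undifferentiated WT, undifferentiated KO, differentiating WT and differentiating KO MSCs; points are libraries and lines are group means. *P4ha1* falls from 144.6 to 35.7 RPKM in WT MSCs and starts at 72.8 RPKM in KO MSCs, while *Lox* has no estimate in differentiating WT MSCs.

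To ask how the genes differ between genotypes and how they respond to induction, log2(RPKM + 0.1) was compared between groups in a linear model of all genes (limma), and a gene passed at a Benjamini-Hochberg adjusted p-value under 0.05. Fold changes are on that scale, and "DEG" stands for a gene that passed with a change of more than 2-fold. In undifferentiated cells 6 of the 10 genes were lower in KO than in WT MSCs and 1 was higher, with 3 not passing; among all 15304 genes tested 17.5% were lower and 14.6% higher. The median log2 fold change was -0.27 over the 10 genes and 0.00 over all genes. None of the 10 was a DEG, against 1.64% of all genes (0 of 10 DEGs, with 7 at an adjusted p-value under 0.05). In differentiating cells 3 of the 9 genes with a value were lower in KO MSCs and 2 were higher, against 22.8% and 17.8% of all genes, again with 0 DEGs (3.19% of all genes), and the medians were -0.08 and -0.01.

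Induction changed nearly all of the genes, in both directions. In WT MSCs 6 of 9 fell and 3 rose (32.8% and 31.7% of all genes), and *P4ha1*, *Plod2* and *Loxl2* were DEGs, against 14.3% of all genes. In KO MSCs 5 of 10 fell and 4 rose (36.6% and 36.3% of all genes), and *P4ha1*, *Serpinh1* and *Loxl2* were DEGs, against 22.8% of all genes. The median log2 fold change was -0.25 over the 9 genes in WT and -0.07 over the 10 genes in KO MSCs, against 0.00 over all genes in each. *Lox* (0.20) counts only in the KO median, so these 2 medians cover different genes. Without *Lox*, the middle of the KO values was that of *Loxl1*, at -0.35, below the WT median. Comparisons that share a group of libraries, such as the KO difference and the WT response that both use undifferentiated WT MSCs, are not independent of each other.

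**Figure D2:**
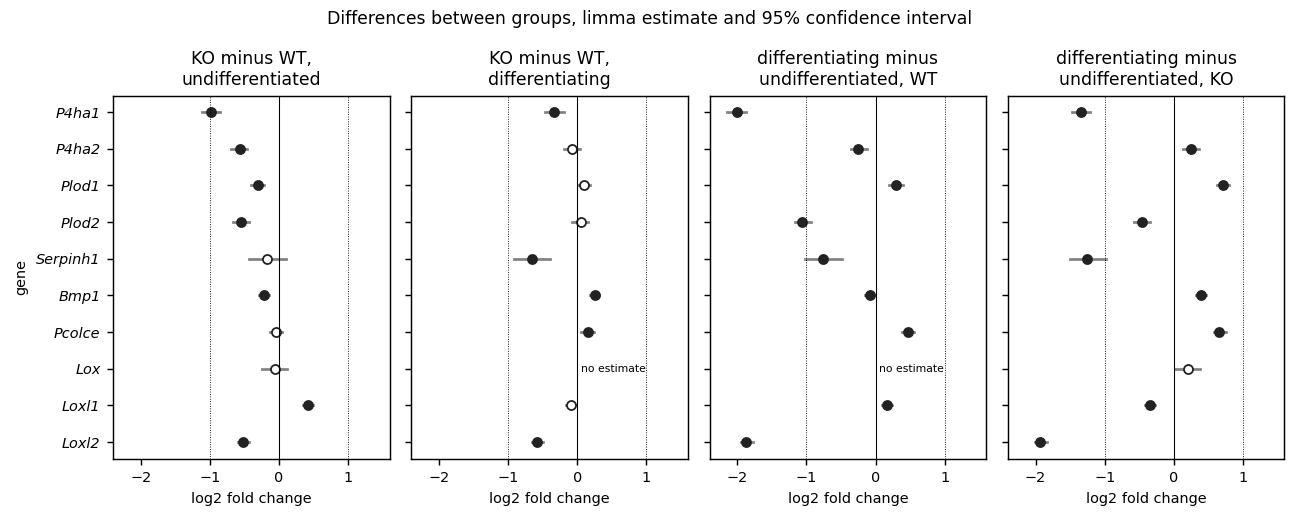
Log2 fold change (horizontal axis) of each gene in the 4 comparisons between groups, with 95% confidence intervals as bars; filled points passed at an adjusted p-value under 0.05 and dotted lines mark 2-fold. *P4ha1* and *Loxl2* lie beyond the 2-fold line in both induction panels, and no point does so in the KO against WT panels.

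The prolyl 4-hydroxylase subunits were both lower in undifferentiated KO MSCs. *P4ha1* (chr10:59323296-59373304), the catalytic subunit most widely expressed in tissues, was at 143 and 146 RPKM in undifferentiated WT libraries and at 72.3 and 73.3 RPKM in the KO libraries. After induction it was at 35.1 and 36.3 RPKM in WT and at 30.0 and 27.0 RPKM in KO MSCs. KO libraries were thus below WT libraries in both states, and every differentiating library was below every undifferentiated one. The KO difference was -0.99 in log2 (SE 0.05, limma adjusted p = 0.00038) before induction, a decrease that fell short of 2-fold, and -0.33 (SE 0.05, adjusted p = 0.0061) after it. Leaving out replicate 1 of undifferentiated WT MSCs put *P4ha1* past 2-fold, at -1.01. Induction lowered *P4ha1* 4.04-fold in WT (adjusted p = 2.1e-06) and 2.55-fold in KO MSCs (adjusted p = 4e-06).

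*P4ha2* (chr11:54100095-54131665), the second catalytic subunit, was at 106 and 107 RPKM in undifferentiated WT and at 70.8 and 72.3 RPKM in undifferentiated KO libraries. In the differentiating cells it was at 87.9 and 91.3 RPKM in WT and at 88.6 and 81.4 RPKM in KO libraries, which overlap. *P4ha2* was 1.49-fold lower in KO MSCs before induction (log2 fold change -0.57, SE 0.05, limma adjusted p = 0.00097); after it the difference was -0.08 (95% interval -0.19 to 0.04, adjusted p = 0.23), and -0.14 (adjusted p = 0.03) without replicate 1 of differentiating KO MSCs. *P4ha2* moved in opposite directions in the 2 genotypes, falling 1.19-fold in WT (adjusted p = 0.0044) and rising by 18.6% in KO MSCs (adjusted p = 0.0035).

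Both lysyl hydroxylases were lower in undifferentiated KO MSCs; during induction *Plod2* fell and *Plod1* rose. *Plod2* (chr9:92542223-92608428) encodes the enzyme that hydroxylates lysines of the collagen telopeptides, the ends at which cross-links form. It was at 86.0 and 88.8 RPKM in undifferentiated WT and 59.6 and 60.0 RPKM in undifferentiated KO libraries, 1.46-fold lower (log2 fold change -0.55, SE 0.05, limma adjusted p = 0.0012). After induction it was at 43.2 and 40.8 RPKM in WT and 44.9 and 41.9 RPKM in KO libraries, and the genotypes overlapped (0.05, 95% interval -0.07 to 0.16, adjusted p = 0.47). It fell 2.08-fold in WT (adjusted p = 1.1e-05) and 1.38-fold in KO MSCs (adjusted p = 0.0002), from a lower starting level in the KO cells.

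*Plod1* (chr4:147909753-147936767), which hydroxylates lysines of the helical part, was the least abundant of the 10 genes in undifferentiated cells. Its libraries were at 36.6 and 35.0 RPKM in undifferentiated WT and 29.3 and 28.4 RPKM in undifferentiated KO MSCs, and at 45.0 and 43.1 and 47.0 and 47.4 RPKM in the respective differentiating groups. *Plod1* was 1.24-fold lower in KO MSCs before induction (log2 fold change -0.31, SE 0.04, limma adjusted p = 0.0031) and differed by 0.10 in log2 after it (95% interval 0.01 to 0.19, adjusted p = 0.079). With median centring or quantile normalization of the libraries the latter passed, at 0.14 (adjusted p = 0.035) and 0.15 (adjusted p = 0.045). *Plod1* rose by 22.8% in WT (adjusted p = 0.00081) and by 63.4% in KO MSCs (adjusted p = 1.2e-05).

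The KO difference of the collagen chaperone passed in differentiating but not in undifferentiated cells, and its change between the states was near the threshold (interaction -0.49, limma adjusted p = 0.049). *Serpinh1* (chr7:99345376-99353239) was at 1333 and 1397 RPKM in undifferentiated WT and 1194 and 1237 RPKM in undifferentiated KO libraries. The KO libraries were below the WT libraries, yet the difference of -0.17 in log2 did not pass (95% interval -0.43 to 0.10, limma adjusted p = 0.29). In differentiating cells it was at 770 and 848 RPKM in WT and at 571 and 460 RPKM in KO libraries, 1.58-fold lower (log2 fold change -0.66, SE 0.11, adjusted p = 0.0063). Induction lowered *Serpinh1* 1.69-fold in WT (adjusted p = 0.0014) and 2.37-fold in KO MSCs (adjusted p = 0.0001). Its main substrate gene *Col1a1*, the α1 chain of type I collagen, was at 735 and 597 RPKM in undifferentiated WT and 985 and 1048 RPKM in undifferentiated KO libraries, and at 830 and 712 and 411 and 463 RPKM in the respective differentiating libraries. The ratio of *Serpinh1* to *Col1a1* levels within a library was 1.82 and 2.34 in undifferentiated WT MSCs, above the 0.928 to 1.39 of the other 6 libraries.

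Both genes of propeptide removal rose during induction of KO MSCs. *Bmp1* (chr14:70474558-70520234), the procollagen C-proteinase, was at 75.4 and 77.1 RPKM in undifferentiated WT and 65.1 and 65.6 RPKM in undifferentiated KO libraries, 1.17-fold lower (log2 fold change -0.22, SE 0.03, limma adjusted p = 0.0039). In the differentiating cells the order was reversed, with 72.3 and 71.7 RPKM in WT and 84.4 and 86.9 RPKM in KO libraries, an increase of 19.0% (0.25, SE 0.03, adjusted p = 0.0022). *Bmp1* rose by 31.0% during induction of KO MSCs (adjusted p = 4.9e-05). The change in WT MSCs, -0.08 (adjusted p = 0.046), did not pass under 13 alternatives, among them the omission of any one library of the other groups than differentiating KO, and was 0.02 (adjusted p = 0.66) with quantile normalization.

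*Pcolce* (chr5:137605103-137613784), which binds the propeptide and speeds up its removal by BMP1, was at 362 and 365 RPKM in undifferentiated WT and 348 and 357 RPKM in undifferentiated KO libraries (log2 fold change -0.04, 95% interval -0.13 to 0.04, limma adjusted p = 0.37). After induction it was at 506 and 500 RPKM in WT and at 562 and 554 RPKM in KO libraries. It rose by 38.3% in WT (adjusted p = 8.5e-05) and by 58.3% in KO MSCs (adjusted p = 1.2e-05), and every differentiating library was above every undifferentiated one. The KO difference after induction was 0.15 (SE 0.03, adjusted p = 0.019); it did not pass without replicate 1 or without replicate 2 of differentiating WT MSCs (adjusted p = 0.07 and 0.098), with the replicate number as a block (adjusted p = 0.051), with quantile normalization (adjusted p = 0.077) or with only the libraries compared (adjusted p = 0.12). *Fbxo24*, which overlaps *Pcolce* on the same strand, was at 0.268 to 0.609 RPKM.

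The 3 lysyl oxidases behaved differently from one another. *Loxl2* (chr14:69609068-69695834), which oxidises lysines of collagens and is known from basement membranes and fibrotic tissue, was at 218 and 217 RPKM in undifferentiated WT and at 150 and 155 RPKM in undifferentiated KO libraries. In the differentiating cells it was at 58.2 and 61.1 RPKM in WT and at 40.1 and 39.7 RPKM in KO libraries, so that the KO libraries were below the WT libraries in both states. The KO difference was -0.52 before (SE 0.03, limma adjusted p = 0.00056) and -0.58 after induction (SE 0.03, adjusted p = 0.00072). Its fall was 3.64-fold in WT (adjusted p = 7.2e-07) and 3.81-fold in KO MSCs (adjusted p = 3.6e-07). The RNA gene Mir6950 inside *Loxl2* was at 0 in each library.

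*Loxl1* (chr9:58287738-58313186), which acts on elastic fibres, was the only one of the 10 genes that was higher in undifferentiated KO MSCs, with 102 and 98.8 RPKM against 74.1 and 75.5 RPKM in WT libraries, an increase of 33.8% (log2 fold change 0.42, SE 0.03, limma adjusted p = 0.00068). After induction it was at 83.4 and 84.7 RPKM in WT and at 79.7 and 77.7 RPKM in KO libraries, and the difference of -0.09 did not pass (95% interval -0.17 to -0.02, adjusted p = 0.051); without replicate 1 of differentiating KO MSCs it was -0.11 (adjusted p = 0.039). *Loxl1* rose by 12.4% in WT (adjusted p = 0.0036) and fell by 21.4% in KO MSCs (adjusted p = 0.0001).

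*Lox* (chromosome 18, minus strand), the founding member of the family and a cross-linking enzyme of collagen and elastin, was at 1277 and 1277 RPKM in undifferentiated WT and 1240 and 1205 RPKM in undifferentiated KO libraries. The genotypes differed by -0.06 in log2 (95% interval -0.25 to 0.12, limma adjusted p = 0.55). Both differentiating WT libraries list *Lox* at 0, which was treated as a missing estimate, while its neighbour *Srfbp1* was at 17.6 to 21.9 RPKM in every library. No comparison with differentiating WT MSCs is therefore given for *Lox*. In differentiating KO MSCs it was at 1483 and 1326 RPKM, above both undifferentiated KO libraries, with a difference of 0.20 that did not pass (95% interval 0.01 to 0.38, adjusted p = 0.056). Without replicate 2 of differentiating KO MSCs it was 0.28 (adjusted p = 0.0094), and over all alternatives the adjusted p ran from 0.0094 to 0.22.

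Because the 2 states gave different genotype differences, the change of that difference with induction was tested as an interaction. It passed for 8 of the 9 genes with a value, with 6 higher and 2 lower, against 19.4% and 20.0% of all genes; 0 were DEGs by the interaction (6.05% of all genes). For *P4ha1*, *P4ha2*, *Plod1*, *Plod2* and *Bmp1* the KO difference moved up by 0.41 to 0.66 in log2 between the states (limma adjusted p = 0.0011 to 0.0033). These 5 genes were lower in undifferentiated KO MSCs; after induction 1 of them was still lower, 1 was higher and 3 did not pass. For *Loxl1* the difference moved the other way, by -0.52 (SE 0.04, adjusted p = 0.001). *Loxl2* kept a similar difference in both states (interaction -0.06, 95% interval -0.18 to 0.06, adjusted p = 0.35). The interactions of *Serpinh1* (-0.49, adjusted p = 0.049) and *Pcolce* (0.19, adjusted p = 0.025) were near the threshold: each was lost when any one library of undifferentiated WT, undifferentiated KO or differentiating WT MSCs was left out (adjusted p = 0.075 to 0.15 and 0.066 to 0.11), and with the replicate block (adjusted p = 0.088 and 0.065). With quantile normalization that of *Pcolce* was 0.10 (adjusted p = 0.3).

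**Figure D3:**
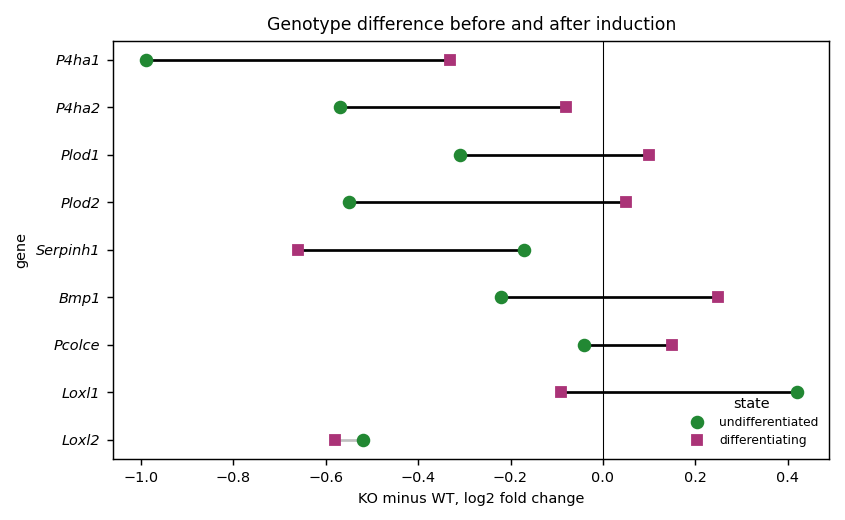
KO minus WT difference in log2 (horizontal axis) of 9 genes in undifferentiated (circles) and differentiating MSCs (squares); black lines join values of genes whose interaction passed and the grey line that of *Loxl2*, which did not. *P4ha1* moves from -0.99 to -0.33, *Plod2* from -0.55 to 0.05 and *Bmp1* from -0.22 to 0.25, whereas *Serpinh1* moves from -0.17 to -0.66.

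Ratios of related enzymes within a library show the same values free of the scaling between libraries. The level of *P4ha1* was 1.35 and 1.37 times that of *P4ha2* in undifferentiated WT libraries, 1.02 and 1.01 times in undifferentiated KO libraries, 0.399 and 0.398 times in differentiating WT libraries and 0.339 and 0.332 times in differentiating KO libraries. *P4ha2* was thus the more abundant subunit after induction in both genotypes. The ratio of *Plod2* to *Plod1* was 2.35 and 2.53 in undifferentiated WT and 2.03 and 2.11 in undifferentiated KO libraries, and between 0.883 and 0.961 in all differentiating libraries. The ratio of *Loxl2* to *Loxl1* was 2.94 and 2.88 in undifferentiated WT and 1.48 and 1.56 in undifferentiated KO libraries. It was 0.698 and 0.722 in differentiating WT and 0.503 and 0.511 in differentiating KO libraries, so that these 4 pairs of libraries did not overlap. That of *Pcolce* to *Bmp1* was 4.74 to 5.44 in undifferentiated and 6.37 to 7.00 in differentiating libraries.

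**Figure D4:**
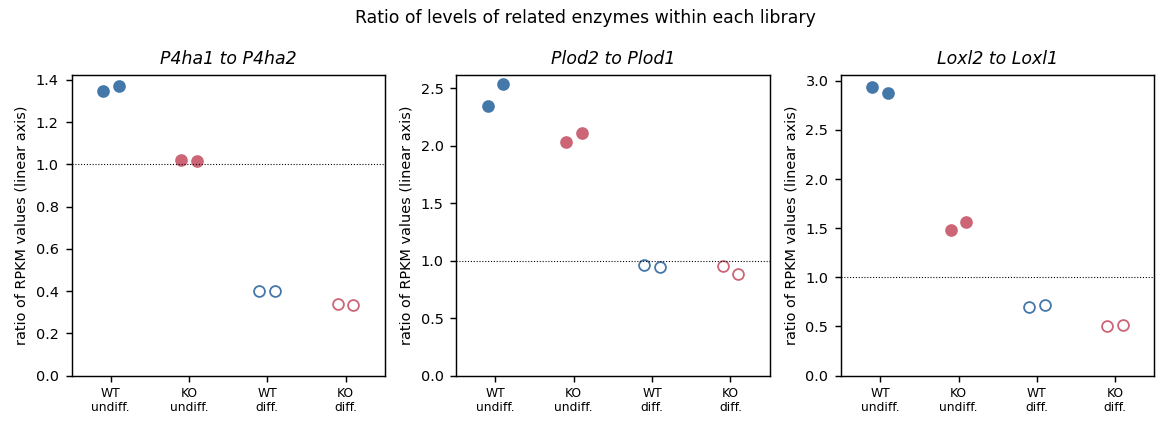
Ratio of RPKM values of related enzymes within each library (linear axis from 0), with 2 points per group and a dotted line at a ratio of 1. The 3 ratios plotted, *P4ha1* to *P4ha2*, *Plod2* to *Plod1* and *Loxl2* to *Loxl1*, are above 1 in the undifferentiated groups and below 1 in the differentiating groups, and the KO libraries lie below the WT libraries of the same state for the first and the last.

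Over the 8 libraries, which share their library scaling and fall into 4 groups, the levels of some of the genes ran together. On the log2 scale Pearson's r was 0.98 for *P4ha1* with *Plod2* and 0.98 for *P4ha1* with *Loxl2*, but 0.40 for *P4ha1* with its paralog *P4ha2*. *Pcolce* ran against *Loxl2* (-0.97) and with *Plod1* (0.93). Among 12218 genes averaging 1 RPKM or more, the one most like *Loxl2* was Hk2, a hexokinase gene (r = 0.9997), and the one most like *P4ha1* was Tpi1, the triosephosphate isomerase gene (r = 0.9990). The genes most like *Plod2*, *Serpinh1*, *Pcolce* and *Plod1* were Glce (0.9982), Arfip2 (0.9989), Rilpl1 (0.9991) and Amy1 (0.9970). *P4ha2*, *Bmp1* and *Loxl1* had Igfbp2 (0.9907), Rapgef3 (0.9930) and Ahcyl1 (0.9841) as nearest genes, and *Lox*, over 6 libraries, F2r (0.9988). These values rest on 4 groups of 2 libraries and are given as a description.

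Other genes of collagen processing were then set beside these 10. Of 23 listed genes 21 were tested; the collagen galactosyltransferase gene Colgalt2 and the proteinase gene Tll2 were below the expression minimum. In undifferentiated cells 2 were higher and 4 lower in KO MSCs (median -0.10), shares near or below the 14.6% and 17.5% of all genes. In differentiating cells 2 were higher and 12 lower (median -0.28), against 17.8% and 22.8% of all genes. Calls of these other genes were not repeated under the alternative settings. Over all genes the number lower there was 3497, and 1940 with only the libraries compared. *P4hb*, the protein disulphide isomerase that is the β subunit of the prolyl 4-hydroxylases, was 853 and 883 RPKM in undifferentiated WT and 773 and 767 RPKM in undifferentiated KO libraries, and its difference of -0.17 did not pass (limma adjusted p = 0.13); after induction it was lower in KO MSCs (-0.30, adjusted p = 0.025). *Loxl3*, a further lysyl oxidase, was at 124 and 136 RPKM in differentiating WT and 71.5 and 56.3 RPKM in differentiating KO libraries, a DEG at -1.03 (adjusted p = 0.0017). *P4ha3*, the remaining catalytic subunit, was lower there (-0.67, adjusted p = 0.00072), as was *Fkbp10*, which encodes the HSP47 partner FKBP65 (-0.66, adjusted p = 0.0015).

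Induction raised 8 and lowered 8 of these 21 genes in WT MSCs and raised 7 and lowered 13 in KO MSCs; the shares over all genes were 31.7% and 32.8% in WT and 36.3% and 36.6% in KO MSCs, near these counts except for the 13 that fell. The N-propeptide proteinase gene *Adamts2* rose from 24.3 and 24.5 to 52.9 and 51.6 RPKM in WT and from 23.9 and 23.2 to 79.8 and 89.6 RPKM in KO libraries, and the response was larger in KO MSCs (interaction 0.74, limma adjusted p = 0.0017). *Pcolce2*, the paralog of *Pcolce*, rose by 1.27 and 2.06 in log2 (adjusted p = 2e-05 and 2e-06), again with a passing interaction of 0.79 (adjusted p = 0.0023). Of the less abundant proteinase genes, *Tll1* (-0.93, limma adjusted p = 0.00016) and *Adamts14* (-0.92, adjusted p = 4.8e-05) fell in KO MSCs, and *Adamts3* rose (0.59, adjusted p = 0.045). *Tmem38b*, an endoplasmic reticulum cation channel gene, rose by 1.47 and 1.46. *Loxl3*, *P3h1*, a prolyl 3-hydroxylase gene, and *Fkbp10* were DEGs that fell in KO MSCs, with log2 fold changes of -1.83, -1.12 and -1.16, against -0.48, -0.76 and -0.55 in WT MSCs. The interaction passed for *Loxl3* (-1.35, limma adjusted p = 0.0021) and *Fkbp10* (-0.62, adjusted p = 0.0045) but not for *P3h1* (-0.36, adjusted p = 0.053). *Plod3*, the third lysyl hydroxylase gene, fell in both genotypes (-0.51 in WT and -0.71 in KO MSCs) without a passing interaction (-0.20, adjusted p = 0.12).

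The substrates of the enzymes changed in both directions. Of 14 fibril collagen and elastic fibre genes 13 were tested between genotypes, since *Col1a2* is listed at 0 in the 4 WT libraries but at 1047 to 1472 RPKM in KO libraries. In undifferentiated cells 2 were higher and 8 lower in KO MSCs (median -0.38), against 14.6% and 17.5% of all genes, and in differentiating cells 4 were higher and 6 lower (median -0.15), against 17.8% and 22.8%. *Col1a1* was higher before induction (0.62, limma adjusted p = 0.016) and lower after it (-0.82, adjusted p = 0.0051), with an interaction of -1.43 (adjusted p = 0.0026). *Col3a1*, a main collagen of stromal cells, was at 1652 and 1672 RPKM in undifferentiated WT and at 1192 and 1253 RPKM in undifferentiated KO libraries (-0.44, adjusted p = 0.0037). *Eln*, the gene of elastin, a substrate of the products of *Lox* and *Loxl1*, was at 0.114 RPKM or less in the undifferentiated libraries, at 2.07 and 1.98 RPKM in differentiating WT and at 4.37 and 4.83 RPKM in differentiating KO libraries.

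Since several of the 10 genes are known hypoxia targets, 10 other genes known as induced by hypoxia were described in the same way. In undifferentiated cells 8 of them were lower and 0 higher in KO MSCs by limma, with 0 higher also at an unadjusted p under 0.05 (2 did not pass), and with a median of -0.67 against -0.27 for the 10 collagen processing genes; 17.5% of all genes were lower. *Pdk1*, which encodes a pyruvate dehydrogenase kinase, was at 16.7 and 17.2 RPKM in WT and 4.43 and 4.72 RPKM in KO libraries (-1.87, adjusted p = 8.6e-05), and *Vegfa*, the angiogenic growth factor gene, at 83.2 and 84.2 and 56.1 and 58.6 RPKM (-0.54, adjusted p = 0.0016). In differentiating cells 3 were higher and 3 lower (median 0.09; 17.8% and 22.8% of all genes). During induction 9 of the 10 fell in WT MSCs (median -1.36), with *Vegfa* at 12.9 and 13.0 RPKM (-2.68 in log2), and 7 fell in KO MSCs (median -0.89), against 32.8% and 36.6% of all genes. *Ndrg1* rose in both genotypes (1.39 and 3.78) and *Bnip3* in KO MSCs (2.45, against -0.20 in WT MSCs). The interaction was higher for 6 and lower for 0 of the 10 genes (19.4% and 20.0% of all genes), with 4 not passing and 0 lower also at an unadjusted p under 0.05. The hypoxia list was chosen with earlier results of these data known, so its counts are not independent of those results. Oxygen was not varied among the groups, and the part of the hypoxia genes' common changes in those of the collagen enzymes was not tested.

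**Figure D5:**
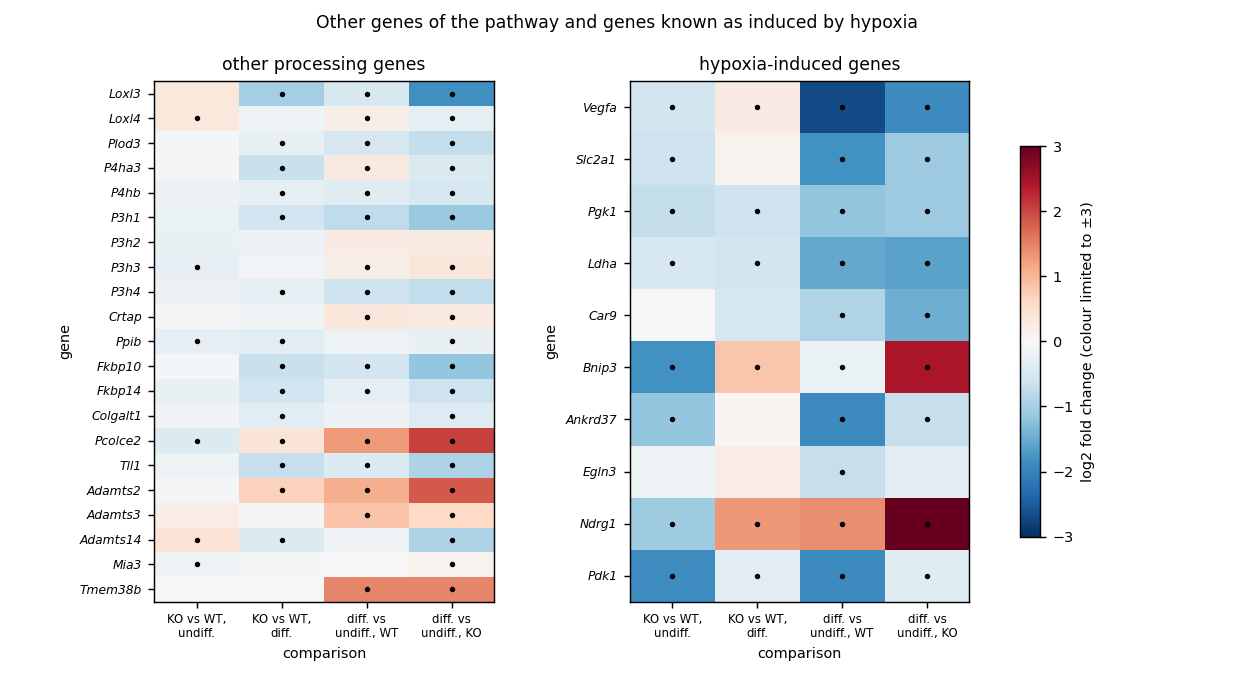
Log2 fold change (colour, limited to 3 in each direction) of 21 other collagen processing genes and of 10 genes known as induced by hypoxia in the 4 comparisons between groups; dots mark changes that passed at an adjusted p-value under 0.05. In the first column of the right panel 8 genes are lower in KO MSCs, while in the left panel 12 genes are lower in the second column.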

How the data were processed

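Ribosomal RNA was depleted and stranded libraries were made from total RNA (the labels and the paper name different kits of the same series). The authors aligned single-end reads to mm10 with TopHat2 (version 2.1.0 in the submitters' processing notes), used the iGenomes annotation and computed values with Cuffdiff of Cufflinks 2.2.1. The deposited table gives RPKM for each gene in each separate library; the library scaling of Cuffdiff is not given in the sources used here, and 0 columns lacked a sample. No read counts were used: of 3551 low values 75.1% were whole reads within 0.1 read, so a count test was not run.

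The 15342 genes averaging 0.1 RPKM or more were tested on log2(RPKM + 0.1) with limma 3.58.1 (R 4.3.3), in a model of the 4 group means with a variance trend, 4 residual and 1.95 prior degrees of freedom, and Benjamini-Hochberg adjustment over all genes. A gene listed at 0 in both libraries of a group but at 20 RPKM or more in both of another (50 genes) was treated as missing in the group at 0; *Col1a2* and *Lox* are such genes. Transformed values of low genes understate their change. The fit was run on simulated data with known changes before use. Depth was estimated, not given, and counting errors cover counting only. Positions are from GENCODE vM21 on mm10, and promoters from RefSeq. Tables and figures used Python 3.11.15, pandas 2.3.3 and matplotlib 3.10.9. The 10 genes and all gene lists were chosen with earlier results of these data known, and genes of the processing, substrate and hypoxia lists were eligible to be named when a DEG in a comparison or averaging 20 RPKM or more. Not every eligible gene is named. Untested genes, cell type markers, checks and the proteinase genes *Tll1*, *Adamts14* and *Adamts3* are named besides. Alternatives covered the pseudocount, the expression minimum, scaling, the variance trend, a replicate block, listed zeros, the libraries in the fit and each library left out.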

Additional observations from a re-analysis of the deposited data

Results flagged for a closer look

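By the interaction term of the limma model, the genotype difference changed with induction for 8 of the 9 genes with a value. Of these, 6 moved up and 2 down, against 19.4% and 20.0% of all genes. The difference moved up for *P4ha1* (0.66 in log2, Benjamini-Hochberg adjusted p = 0.002), *Plod2* (0.59, adjusted p = 0.002), *P4ha2* (0.49, adjusted p = 0.0033), *Bmp1* (0.47, adjusted p = 0.0011), *Plod1* (0.41, adjusted p = 0.003) and *Pcolce* (0.19, adjusted p = 0.025). It moved down for *Loxl1* (-0.52, adjusted p = 0.001) and *Serpinh1* (-0.49, adjusted p = 0.049). The calls of *Serpinh1* and *Pcolce* were lost under several alternatives, among them the replicate block (limma adjusted p = 0.088 and 0.065). Groups of 2 libraries are too small to look for an outlying library.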

How the results depend on the processing

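The 4 comparisons between groups were repeated under every alternative setting, and the interaction under all but the fit of only the libraries compared, since it uses all libraries. Over the values of single genes in each comparison, 787 kept their direction and side of the threshold, 35 lost their call, 11 gained one and 4 changed sign: with quantile normalization *Pcolce* (0.03) and *Lox* (0.10) between the undifferentiated groups and *Bmp1* in WT induction (0.02), and, without replicate 1 of differentiating KO MSCs, *Plod2* between the differentiating groups (0.00). Between the differentiating groups the number of genes higher in KO MSCs was 1 with the replicate block and with only the libraries compared, and 1 to 2 with a library left out; the number lower was 3 to 5 with a library left out. Between the undifferentiated groups 0 to 1 genes were past 2-fold with a library left out. For the interaction, 1 gene was lower with a pseudocount of 1, with no expression filter, with no variance trend and with the replicate block, and 1 to 2 with a library left out. Keeping the listed zeros put *Lox* past 2-fold in the KO difference after induction and in the interaction (1 gene each). The same zeros take *Lox* from 1277 to 0 RPKM in WT induction, also a change of more than 2-fold. Over all genes, 897 to 2687 were higher and 1267 to 3094 lower between the undifferentiated groups with a library left out (2233 and 2677 with all libraries). Between the differentiating groups these ranges were 1348 to 2475 and 1766 to 3835 (2728 and 3497 with all libraries, 1751 and 1940 with only the libraries compared), and for the interaction 1990 to 3454 were lower (3058 with all libraries). Apart from the zeros of *Lox*, the fewer libraries in some settings and the block, the cause of these changes was not tested. Replicate differences correlated between groups at -0.13 to 0.00 over 12007 genes, so the replicate numbers were not taken as pairs, and the replicate block changed the calls of *Serpinh1* and *Pcolce* (interaction), *Pcolce* (differentiating KO against WT) and *Bmp1* (WT induction, adjusted p = 0.075). Depth does not limit these genes; the 2 libraries per group do.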
